A study of Saccharomyces cerevisiae with 16 samples.

Results

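The ribosomal DNA (rDNA) of budding yeast was represented on these arrays by 17 features out of 13059 feature names. They were found by name, as every spot name that contains RDN, while 0 names began with ETS, ITS or NTS and a digit. All 17 passed the filter for testing, among 12380 tested features. Of these, 4 carry the name of the 25S rRNA gene (RDN25-1, RDN25-1A, RDN25-1B and RDN25-1C) and 3 that of the 18S rRNA gene (RDN18-1, RDN18-1A and RDN18-1B). RDN58-1 is named for 5.8S rRNA, RDN5-1 for 5S rRNA, and 4 features (RDN37-1, RDN37-1A, RDN37-1B and RDN37-1C) for the precursor transcript of 25S, 18S and 5.8S rRNA. The remaining 4 names (IRDN37-1, IRDN5-1, IRDN5-2 and IRDN5-3) begin with I, as do the names of the intergenic spots on these arrays, and are called spacer features here. The names do not say which stretch of the repeat a lettered piece covers, and no coordinates are given because the genome build of the arrays is not known.

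In budding yeast the rDNA is a long array of tandem repeats on chromosome XII. Each repeat holds a gene for the 35S precursor, read by RNA polymerase I, and a 5S gene, read by RNA polymerase III, with spacers between them that carry a replication origin and a barrier where forks meeting the Fob1 protein are held. Rrm3 is a DNA helicase known to help replication forks through the rDNA, tRNA genes and other sites of tightly bound protein. Pol2 is the catalytic subunit of DNA polymerase epsilon, so its association with DNA follows the replication fork. Since all repeats have nearly the same sequence, a spot reads the average of all copies.

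The study measured where the 2 proteins associate with the genome by chromatin immunoprecipitation on PCR-product arrays, with DNA recovered with a MYC antibody (IP) in one dye and total genomic DNA (input) in the other. All cells were haploid W303a, grown asynchronously in YEPD to an OD of 0.25 and fixed. The groups were the Pol2 IP from wild-type cells with DNA Pol2-13MYC (arrays 039, 086, 136 and 230), the Pol2 IP from DNA Pol2-13MYC cells labelled rrm3 delete (arrays 040, 137, 182, 183, 239 and 240), and the Rrm3 IP from cells with Rrm3-13MYC (arrays 031, 041, 088, 184 and 185). No IP from untagged cells was analysed here, so each value is measured against input only.

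Some arrays stood apart, and this touches the results below. Array 136 was labelled with the IP in Cy5, but read that way it correlated across features at -0.54 to -0.15 with the other grouped arrays. It was therefore read in the direction of the deposited table. It measured 6 of the 17 features, because 49.7% of its spots carried a quality flag, and array 182 measured 13, with 54.0% flagged. Arrays 031 and 041 had another layout, with 15356 names. Array 031 correlated with the other grouped arrays at only -0.07 to 0.23. Pairs of Rrm3 arrays had a median r of 0.22 across features, from 0.04 to 0.45. The median was 0.37 within wild type and 0.51 within the arrays labelled rrm3 delete. The input signal of the RRM3 gene lay between percentiles 1.68 and 12.2 of all spots on 5 arrays labelled rrm3 delete but at percentile 50.2 on array 239, against 32.3 to 94.8 on the wild-type and Rrm3 arrays. By this 1 gene, array 239 goes against its label. Its median log2 ratio over tRNA gene features was 0.82. The other arrays labelled rrm3 delete had 0.81 to 0.99 there, and the wild-type arrays -0.11 to 0.03. Whether the label of array 239 holds was not tested. For array 086 the labels mention, besides MYC, an antibody against histone methylation.

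Most rDNA spots were among the brightest on the arrays. The median input percentile was above 95 for 14 of the 17 features, the exceptions being IRDN5-1 (92.0), RDN18-1B (79.2) and IRDN5-2 (63.7). A spot signal of 60000 or more, near the scanner limit, was reached by 10 features on array 041, by 7 each on arrays 031 and 184, by 4 on array 185 and by at most 3 on any other array. RDN18-1A reached it on 12 arrays, while RDN5-1, IRDN5-2, IRDN5-3, RDN18-1B and RDN37-1B never did. A saturated channel understates its signal, so ratios of such spots are bounded by the scanner. Where both channels are saturated, the ratio reflects the limit and the centring of the array more than the DNA. Where a feature had 2 unflagged spots on an array, they differed by a median of 0.18 on the log2 scale (104 pairs, 8 features).

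Values are log2 ratios of IP over input, with the median of all features on an array set to 0. Group values are fitted means with standard errors (SE) from 1 limma model over the 15 arrays with a term for dye orientation. A feature is called higher or lower at a Benjamini-Hochberg adjusted p under 0.05 over all 12380 features.

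RDN5-1, the 5S feature, had the highest fitted ratio of all rDNA features for Pol2 on the arrays labelled rrm3 delete, with IRDN5-1, IRDN5-2 and RDN25-1 within 1 SE of it. There its log2 ratio ranged from 0.86 to 1.99 with a median of 1.46 over 6 arrays. In wild type it was 1.73 on array 039, 0.99 on array 086 and 0.41 on array 230. The Rrm3 arrays gave -0.20 on array 031, 0.87 on array 041, 1.84 on array 088, -0.43 on array 184 and 1.30 on array 185. All arrays labelled rrm3 delete and all measured wild-type arrays were above the array median, in overlapping ranges, while 2 of the 5 Rrm3 arrays lay below it. The fitted mean was 1.46 ± 0.23 (SE, n = 6, limma adjusted p = 0.000383) on arrays labelled rrm3 delete, a 2.76-fold ratio. It was 0.92 ± 0.33 (n = 3, adjusted p = 0.146) in wild type and 0.61 ± 0.25 (n = 5, adjusted p = 0.0882) in the Rrm3 IP, neither of which passed the threshold.

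The spacer features named after the 5S gene gave a similar picture. IRDN5-2, the dimmest of the rDNA features in the input, ranged from 0.84 to 1.70 with a median of 1.36 on the 6 arrays labelled rrm3 delete. In wild type it was 1.15 on array 039, 0.90 on array 086, 0.09 on array 136 and 0.16 on array 230. With Rrm3 it was -0.06 on array 031, 0.89 on array 041, 1.22 on array 088, -0.13 on array 184 and 0.91 on array 185. The arrays labelled rrm3 delete overlapped the upper arrays of both other groups and spread least. Its fitted mean was 1.33 ± 0.16 (adjusted p = 3.33e-05), 0.57 ± 0.20 (adjusted p = 0.129) and 0.51 ± 0.18 (adjusted p = 0.0455) in the same order of groups. The last value sits close to the threshold and missed it under 24 of 34 alternatives.

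IRDN5-3 ranged from 0.66 to 1.72 with a median of 1.22 over 6 arrays labelled rrm3 delete, against 0.94, 0.72 and 0.27 on wild-type arrays 039, 086 and 230. Rrm3 arrays gave 0.91 on array 041, 1.55 on array 088, -0.34 on array 184 and 0.95 on array 185, so array 184 alone lay below 0. It was called for Pol2 on arrays labelled rrm3 delete (1.20 ± 0.15, adjusted p = 9.88e-05) and for Rrm3 (0.77 ± 0.19, adjusted p = 0.0111). IRDN5-1 reached 2.68 on array 239, with a lowest value of 0.83 and a median of 1.11 in that group. Its fitted mean was 1.45 ± 0.26 (adjusted p = 0.00123) on arrays labelled rrm3 delete, 1.13 ± 0.37 (adjusted p = 0.116) in wild type and 0.67 ± 0.29 (adjusted p = 0.0977) in the Rrm3 IP. IRDN37-1, the spacer named after the precursor gene, gave, in the same order of groups, 0.75 ± 0.20 (adjusted p = 0.0172), 0.60 ± 0.29 (adjusted p = 0.303) and 0.34 ± 0.22 (adjusted p = 0.28). All 5 features of the 5S gene and the spacers were thus called higher on arrays labelled rrm3 delete, with a median of 1.33. Of all tested features, 9.38% were called higher there.

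**Figure D1:**
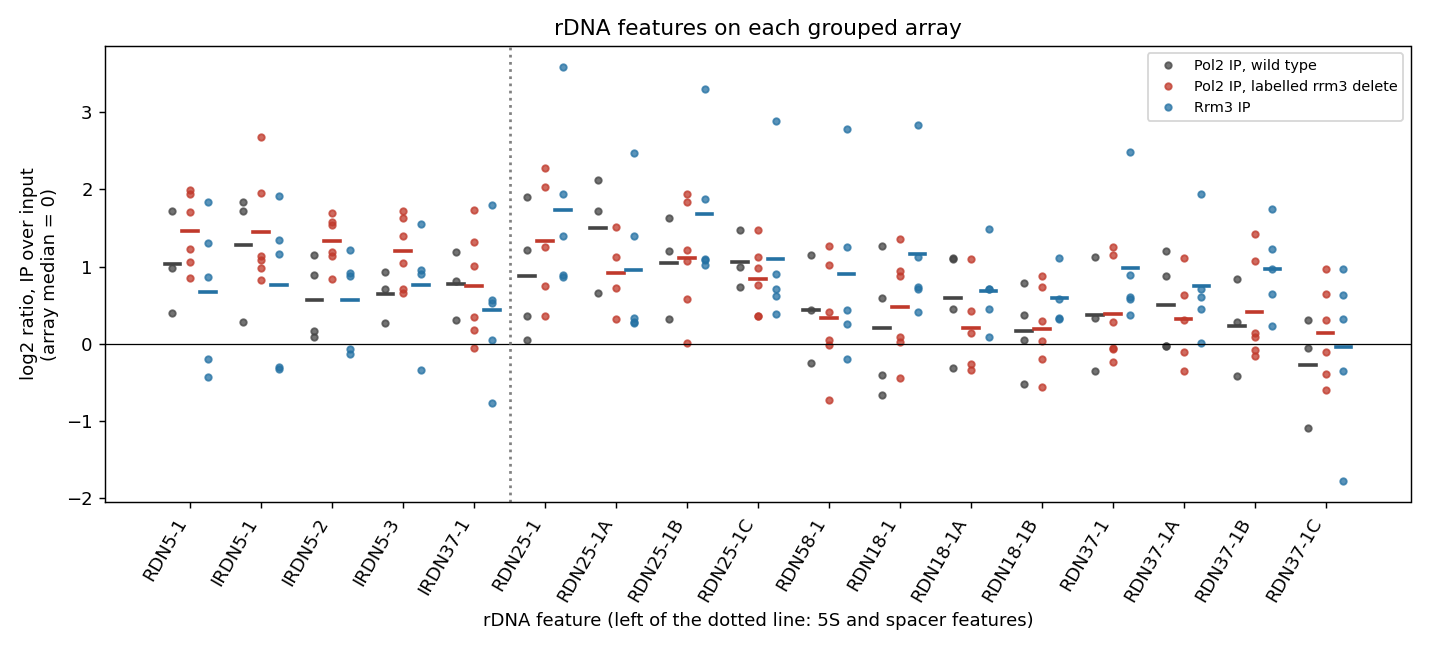
Log2 ratio of IP over input (vertical axis, array median 0) for each rDNA feature (horizontal axis), with 1 point per array, a short line at the mean of each group, and colours for the 3 groups. For the 5S and spacer features the arrays labelled rrm3 delete cluster above the array median except for IRDN37-1 on array 182, and array 088 holds the highest Rrm3 values of most features, up to 3.59 at RDN25-1.

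Of the 4 features of the 25S gene, 4 were called higher in the Rrm3 IP, 3 on arrays labelled rrm3 delete and 0 in wild type. The shares of all tested features called higher were 11%, 9.38% and 0.937% in the same order. RDN25-1 was 0.89 on array 031, 0.86 on array 041, 3.59 on array 088, 1.40 on array 184 and 1.95 on array 185 in the Rrm3 IP. On the arrays labelled rrm3 delete it was 2.04 on array 040, 1.25 on array 137, 0.36 on array 183, 2.28 on array 239 and 0.75 on array 240. In wild type it was 1.90 on array 039, 1.21 on array 086, 0.06 on array 136 and 0.37 on array 230. Every array was above its median, array 088 stood above all others, and the groups overlapped. Among the Pol2 arrays, those with the IP in Cy5 (039, 086, 040, 137 and 239) were all above those read in Cy3 (136, 230, 183 and 240). The fitted mean was 1.65 ± 0.32 (n = 5, adjusted p = 0.00334) in the Rrm3 IP, where its IP spots had 67% of pixels saturated on array 031 and 80% on array 041. With spots of 60000 or more left out it was 2.58 (adjusted p = 3.28e-05). It was 1.25 ± 0.32 (n = 5, adjusted p = 0.0129) on arrays labelled rrm3 delete and 0.88 ± 0.35 (n = 4, adjusted p = 0.203) in wild type.

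RDN25-1B followed it closely in the Rrm3 IP, at 1.10, 1.02, 3.30, 1.09 and 1.88 on arrays 031, 041, 088, 184 and 185. Array 088 again lay well above the remaining arrays, which were all above 1. Its fitted mean was 1.63 ± 0.31 (adjusted p = 0.00304) there and 1.11 ± 0.28 (adjusted p = 0.0117) on arrays labelled rrm3 delete, where array 239 gave 0.02 against 0.58 to 1.95 on the other arrays of the group. RDN25-1C was called in both of these groups (1.04 ± 0.25, adjusted p = 0.00976, and 0.84 ± 0.23, adjusted p = 0.0187). Its spot was saturated in both channels on Rrm3 arrays 184 and 185, with 50% and 37% of input pixels. RDN25-1A had the largest wild-type ratio of the rDNA features, at 1.72, 2.13 and 0.65 on arrays 039, 086 and 230. Its fitted mean of 1.39 ± 0.36 missed the threshold narrowly (adjusted p = 0.0516). RDN25-1A was called in the Rrm3 IP (0.89 ± 0.28, adjusted p = 0.035), with 2.47 on array 088, 1.39 on array 185 and 0.28 to 0.34 on the other arrays.

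The 18S features were called higher in the Rrm3 IP (3 of 3, against 11% of all tested features). For Pol2 they were not called (0 of 3 in each group). There, 9.38% of all tested features were called higher on arrays labelled rrm3 delete and 0.937% in wild type. RDN18-1 was 0.72 on array 031, 0.74 on array 041, 2.84 on array 088, 0.42 on array 184 and 1.12 on array 185, all above 0. Its spot on array 031 was saturated in both channels (59% of input and 51% of IP pixels). RDN18-1A and RDN37-1A, also saturated in both channels there, had the same 0.72, so this value is no measure of enrichment. On arrays labelled rrm3 delete RDN18-1 ranged from -0.44 to 1.36 with a median of 0.48, and in wild type from -0.66 to 1.27, on both sides of 0. The fitted mean was 1.06 ± 0.24 (adjusted p = 0.00727) in the Rrm3 IP, 0.47 ± 0.22 (adjusted p = 0.162) on arrays labelled rrm3 delete and 0.20 ± 0.27 (adjusted p = 0.777) in wild type. RDN18-1A gave 0.66 ± 0.23 (adjusted p = 0.0494) and RDN18-1B 0.59 ± 0.18 (adjusted p = 0.028) in the Rrm3 IP. RDN18-1A, whose IP spot had up to 95% of its pixels saturated, lies at the threshold. Its input was saturated too, at 78%, 63% and 78% of pixels on Rrm3 arrays 031, 184 and 185. The ratios there were 0.72, 0.71 and 0.45. Other spots saturated in both channels had the same values, RDN37-1A on arrays 031 and 185 and RDN25-1C on array 184. These ratios are therefore no measure of enrichment. RDN58-1, the 5.8S feature, was 0.81 ± 0.30 in the Rrm3 IP (adjusted p = 0.0587), with 2.78 on array 088 and -0.19 to 1.25 on the other arrays.

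Among the precursor features, RDN37-1 (0.90 ± 0.24, adjusted p = 0.0149), RDN37-1A (0.67 ± 0.21, adjusted p = 0.0317) and RDN37-1B (0.88 ± 0.19, adjusted p = 0.00594) were called in the Rrm3 IP. The RDN37-1A spot was saturated in both channels on Rrm3 arrays 031, 184 and 185, with 73%, 52% and 55% of input pixels. None of the precursor features was called for Pol2, where fitted means lay between -0.46 and 0.51. RDN37-1C stood apart from its namesakes with the lowest fitted ratio of all rDNA features in each group, at -0.46 ± 0.31 in wild type, 0.14 ± 0.21 on arrays labelled rrm3 delete and -0.15 ± 0.24 in the Rrm3 IP. It was -1.78 on array 184 and 0.97 on array 088, the widest range within the Rrm3 group among the precursor features.

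**Figure D2:**
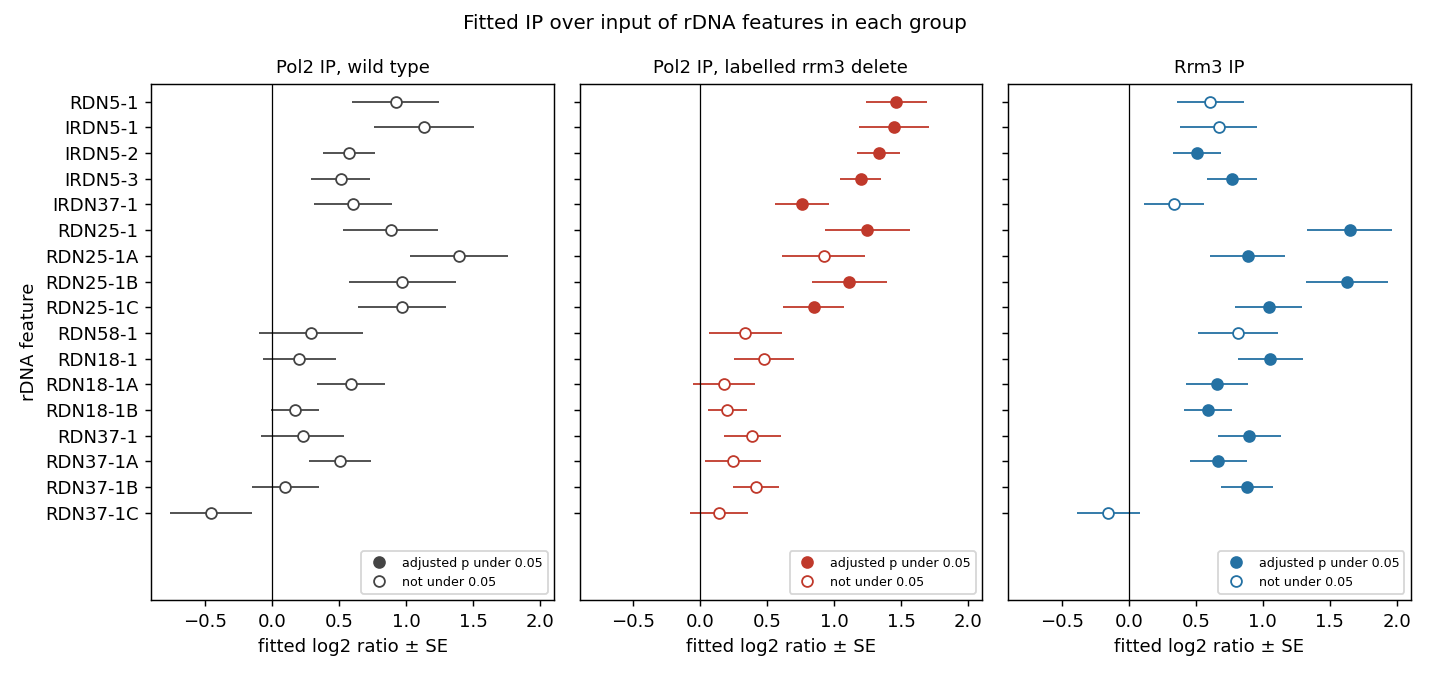
Fitted log2 ratio of IP over input (horizontal axis) with its standard error for each rDNA feature (vertical axis) in the 3 groups. Filled points have an adjusted p under 0.05, which holds for 0 features in wild type, 8 on arrays labelled rrm3 delete and 12 in the Rrm3 IP. The 12 include RDN18-1A and RDN37-1A, saturated in both channels on Rrm3 arrays 031, 184 and 185.

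Counted together, 8 of the 17 rDNA features were called higher for Pol2 on arrays labelled rrm3 delete, where 9.38% of all tested features were called higher. The 8 were the 5 features of the 5S gene and the spacers and 3 of the 12 features of the precursor gene, all 25S. The count fell to 4 without array 040 and to 5 on arrays with the IP in Cy5 alone. RDN5-1, IRDN5-1, IRDN5-2 and IRDN5-3 kept their call in both. Without array 239, whose RRM3 input signal goes against its label, 7 were called. RDN5-1 was then at 1.44 (limma adjusted p = 0.0026), and RDN25-1 was no longer among those called. In the Rrm3 IP 12 of the 17 were called higher, against 11% of all tested features. These were 10 of the 12 precursor-gene features and 2 of the 5 others. Among the 12, RDN18-1A and RDN37-1A had spots saturated in both channels on Rrm3 arrays 031, 184 and 185. On array 041 their IP spots had 72% and 54% of pixels saturated. Their ratios there reflect the scanner limit more than the DNA, so these calls do not establish enrichment. RDN25-1C was saturated in both channels on arrays 184 and 185, with 50% and 37% of input pixels. The Rrm3 count was 5 without array 185 and 7 without array 184. RDN25-1, RDN25-1B, RDN25-1C, RDN18-1 and RDN37-1B kept their call in both. The count was 8 without array 088, and 2 (IRDN5-3 and RDN37-1B) on arrays with the IP in Cy5 alone. Leaving out array 031 raised it to 14.

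In wild type 0 of the 17 were called by limma, against 0.937% of all tested features called higher. At an unadjusted p under 0.05 there were 10, against 16.8% of all tested features, and the median of the 17 was 0.57 against 0.01 over all features. With the same limma test the count rose to 4 without array 031, to 2 without array 088, to 1 without array 041 or 185, and to 7 without arrays 031 and 041, all of them Rrm3 arrays that enter the same variance estimate and dye term. It stayed at 0 without array 086, and with array 136 read as labelled. No rDNA feature was called lower in any group, against 2.37% of all tested features in wild type, 6.91% on arrays labelled rrm3 delete and 12.7% in the Rrm3 IP. The medians of the 17 were 0.75 on arrays labelled rrm3 delete and 0.77 in the Rrm3 IP, against 0.00 and -0.02 over all features.

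The scanner limit bears on these values. With every spot of 60000 or more left out, the Rrm3 value of RDN25-1 moved as given above, and RDN5-1 on arrays labelled rrm3 delete was at 1.46. RDN18-1A, RDN25-1A, RDN25-1C and RDN37-1A then had too few Rrm3 arrays left to be tested, so their calls could not be checked. The other Rrm3 calls held, and RDN58-1 was added to them (1.51, limma adjusted p = 0.00447). On arrays labelled rrm3 delete RDN18-1 was added (0.47, limma adjusted p = 0.0451). With spots of over 10% saturated pixels left out, 4 of the 17 features could still be tested, and IRDN5-2 (1.33) and IRDN5-3 (1.21) were called on arrays labelled rrm3 delete. For Rrm3 all 4 of those testable, IRDN5-2, IRDN5-3, RDN18-1B and RDN37-1B, were called. RDN5-1 could not be tested that way, as its IP spots had up to 34.5% of pixels saturated.

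The rDNA features varied over the arrays in partly separate sets. As a description over the 15 grouped arrays, which share depth and array effects, RDN5-1 correlated with IRDN5-1, IRDN5-2, IRDN5-3 and IRDN37-1 at r of 0.90, 0.94, 0.93 and 0.87. RDN25-1 correlated with RDN37-1, RDN58-1 and RDN18-1 at 0.96, 0.95 and 0.95. Between RDN5-1 and RDN25-1 it was 0.56. The median r was 0.86 among the 10 pairs of 5S and spacer features, 0.70 among the 66 pairs of precursor-gene features and 0.52 among the 60 pairs between the sets. The ranges overlapped widely, at 0.74 to 0.94, 0.15 to 0.97 and -0.11 to 0.94 in that order. IRDN5-3 and RDN37-1C, from different sets, correlated at 0.94, and RDN18-1A and RDN18-1B, from the same set, at 0.15.

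Array by array, the 5S and spacer features had a higher median than the precursor-gene features on all 6 arrays labelled rrm3 delete. Their medians were 1.73 against 1.11 on array 040, 1.40 against 0.42 on array 137, 1.05 against 0.04 on array 182, 0.84 against -0.25 on array 183, 1.63 against 0.96 on array 239 and 0.83 against 0.04 on array 240. The same order held on the wild-type arrays, by as little as 0.01 on array 039 (1.18 against 1.17). On array 136 only 1 of the 5S and spacer features was measured, IRDN5-2 (0.09), against 5 precursor-gene features (median -0.02). The order was the opposite in the Rrm3 IP on arrays 031 (-0.13 against 0.64), 088 (1.80 against 2.48) and 184 (-0.34 against 0.40). It was 0.89 against 0.50 on array 041 and 0.95 against 0.94 on array 185, so the Rrm3 arrays did not share an order. Array 041 is the one with most features at the scanner limit. Pol2 values also split by dye orientation. With the IP in Cy5, the median of the measured rDNA features was 1.42, 1.12 and 1.25 on arrays 040, 137 and 239. Read in Cy3 it was 0.34, 0.18 and 0.09 on arrays 183, 240 and 182. In wild type it was 1.18 and 0.82 in Cy5 (arrays 039 and 086) against 0.27 and 0.02 in Cy3 (arrays 230 and 136). Precursor-gene medians on the Pol2 arrays in Cy3 ran from -0.25 to 0.04. The Rrm3 orientations overlapped, and the reason was not tested.

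**Figure D3:**
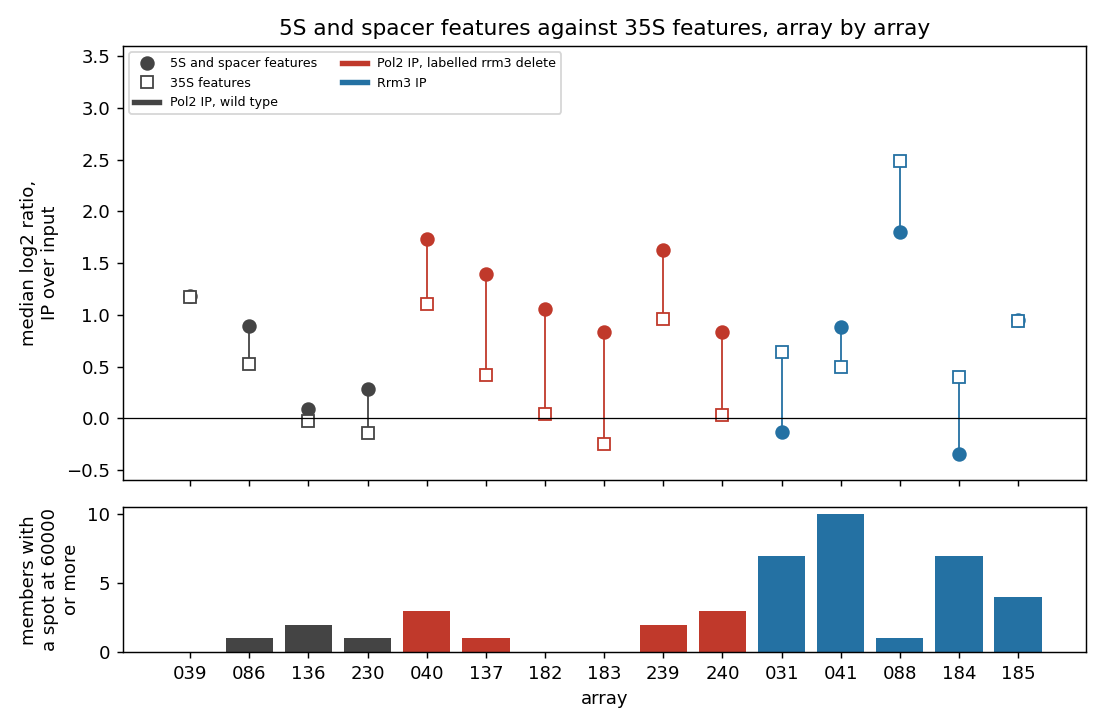
Median log2 ratio of IP over input (upper panel, vertical axis) of the 5S and spacer features (filled circles) and of the precursor-gene features (open squares, 35S) on each grouped array, coloured by group. The lower panel gives how many rDNA features had a spot signal of 60000 or more, with 10 on array 041. The circle lies above the square on all arrays labelled rrm3 delete and below it on Rrm3 arrays 031, 088 and 184.

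Differences from RDN25-1 within an array do not depend on where the array is centred. RDN5-1 minus RDN25-1 was -0.04 on array 040, 0.45 on array 137, 0.70 on array 183, -0.34 on array 239 and 0.47 on array 240, all labelled rrm3 delete. In wild type it was -0.17, -0.23 and 0.04 on arrays 039, 086 and 230. In the Rrm3 IP it was -1.09 on array 031, 0.01 on array 041, -1.75 on array 088, -1.83 on array 184 and -0.64 on array 185. The Rrm3 arrays lay below every Pol2 array except for array 041. The means were 0.25 ± 0.43 (SD, n = 5), -0.12 ± 0.14 (SD, n = 3) and -1.06 ± 0.77 (SD, n = 5).

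The difference between the Rrm3 IP and the arrays labelled rrm3 delete was -1.31, with p = 0.0238 in a two-sided exact permutation test and 0.222 after Benjamini-Hochberg adjustment over the 18 tests of this kind. IRDN5-1 and IRDN5-2, set against RDN25-1 in the same way, gave -1.16 (exact permutation p = 0.0317) and -1.21 (p = 0.0397), with the same adjusted value of 0.222. No test of the 18 passed the adjustment, and 3 were under 0.05 before it. RDN18-1 minus RDN25-1 was below 0 on all 14 arrays that measured both, from -1.33 to -0.12. Its means were -0.68 ± 0.07 (SD, n = 4) in wild type, -0.77 ± 0.35 (SD, n = 5) on arrays labelled rrm3 delete and -0.57 ± 0.39 (SD, n = 5) in the Rrm3 IP, and the groups did not differ beyond this spread. Of those spots, RDN25-1 reached 60000 on 5 arrays and RDN18-1 on 3.

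**Figure D4:**
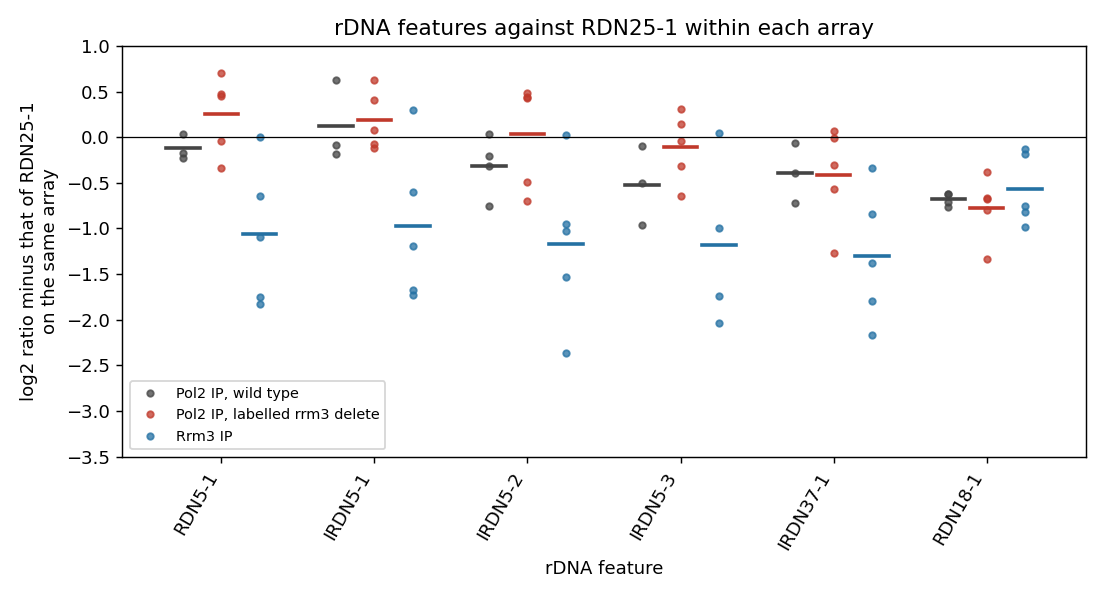
Log2 ratio of each feature minus that of RDN25-1 on the same array (vertical axis) for RDN5-1, the spacer features and RDN18-1 (horizontal axis), with 1 point per array, a line at each group mean and colours for the groups. RDN5-1 averages -1.06 in the Rrm3 IP and 0.25 on arrays labelled rrm3 delete, and RDN18-1 lies below 0 on all arrays.

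Compared between groups, 0 of the 17 rDNA features were called by limma in any of the 3 differences, and 2 were under an unadjusted p of 0.05 in each. The share of all tested features under that p was 5.5% for arrays labelled rrm3 delete minus wild type, 10.9% for the Rrm3 IP minus wild type and 19.3% for the Rrm3 IP minus arrays labelled rrm3 delete. For arrays labelled rrm3 delete minus wild type, 0.557% of all tested features were called higher. The largest rDNA difference there was 0.76 ± 0.25 at IRDN5-2 (adjusted p = 0.38), followed by 0.69 ± 0.27 at IRDN5-3 (adjusted p = 0.658). RDN5-1 differed by 0.54 ± 0.40 and RDN25-1 by 0.36 ± 0.47. The median was 0.54 for the 5S and spacer features and 0.09 for the precursor-gene features. For the Rrm3 IP minus wild-type Pol2, where 0.00808% of features were called higher, RDN18-1 gave 0.85 ± 0.36 (adjusted p = 0.413) and RDN25-1 gave 0.77 ± 0.47 (adjusted p = 0.565). These comparisons share the 4 wild-type arrays.

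For the Rrm3 IP minus Pol2 on arrays labelled rrm3 delete, 0.436% of all features were called higher and 1.94% lower. RDN5-1 was at -0.86 ± 0.34 (adjusted p = 0.185) and IRDN5-2 at -0.82 ± 0.24 (adjusted p = 0.079). All 5 of the 5S and spacer features had a negative difference, from -0.86 to -0.42, and the precursor-gene features had a median of 0.45. Without array 185 the differences of IRDN5-2 (-1.03, adjusted p = 0.019) and RDN5-1 (-1.18, adjusted p = 0.0441) passed the threshold, and without array 088 that of IRDN5-2 did (-0.93, adjusted p = 0.0475). Without arrays 031 and 041, on the other layout, 4 features were called higher in the Rrm3 IP instead, among them RDN25-1 (1.37, adjusted p = 0.0163) and RDN18-1 (1.23, adjusted p = 0.0149). Which set of features differs between these groups therefore depended on the Rrm3 arrays included.

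The sequences beside the rDNA were examined for the same pattern. By gene order in the R64 reference table, further copies of the 5S gene lie among ORFs on the right side of the repeats, next to the ASP3 genes, which code for an asparaginase. Of 31 features from YLR152C to YLR163C, 13 were called higher on arrays labelled rrm3 delete, against 9.38% of all tested features. In the Rrm3 IP 6 were called higher and 6 lower, against 11% and 12.7% of all tested features. In wild type 0 were called, against 0.937% called higher and 2.37% lower. The calls on arrays labelled rrm3 delete included all 8 ORFs from YLR155C to YLR162W, which lie among the 5S copies, and 0 of the 4 ORFs outside them, a grouping made after the values were seen. The 8 had a median of 1.02, from 0.63 to 1.24, and the 4 a median of -0.02. The 8 are not separate readings, since YLR155C, YLR157C, YLR158C and YLR160C are near-identical ASP3 copies. Whether the other ORFs among the 8 share sequence was not examined. By gene order, 5S copies lie after YLR159W and after YLR161W. The intergenic features named after these ORFs, IYLR159W (1.26 ± 0.21) and IYLR161W (1.48 ± 0.22), were among the 13 called. Whether their spots hold 5S sequence was not examined, so they may not be readings separate from RDN5-1. For arrays labelled rrm3 delete minus wild type, limma called 0 of the 31.

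Of these ORFs, YLR161W was 1.42 on array 040, 1.20 on array 137, 1.14 on array 183, 1.35 on array 239 and 1.08 on array 240. In wild type it was 0.69, 0.56, 0.62 and 0.38 on arrays 039, 086, 136 and 230. Array 182 gave no value for it. All measured values of the first group were above all of the second. How many other features separate in this way was not counted. The fitted means were 1.24 ± 0.22 (limma adjusted p = 0.00116) and 0.56 ± 0.24 (adjusted p = 0.245). The difference of 0.68 ± 0.32 did not pass the threshold (limma adjusted p = 0.919), and this ORF was chosen after its values were seen. ASP3-1 (YLR155C, 0.72 ± 0.18), ASP3-2 (YLR157C, 0.85 ± 0.18), ASP3-3 (YLR158C, 0.63 ± 0.14) and ASP3-4 (YLR160C, 0.83 ± 0.21) were called on arrays labelled rrm3 delete. The ASP3 genes are near-identical copies, so their spots cannot be read separately. Outside the 5S copies, RNH203 (YLR154C), coding for a subunit of ribonuclease H2, gave 0.12 ± 0.22 and MAS1 (YLR163C), coding for a subunit of the mitochondrial processing protease, -0.16 ± 0.15. In the Rrm3 IP 3 of the 4 ORFs outside were called lower, RNH203 (-0.65 ± 0.19), MAS1 (-0.58 ± 0.15) and YLR152C (-0.51 ± 0.14), and ACS2 (YLR153C, 0.54 ± 0.12), coding for an acetyl-CoA synthetase, was called higher. Among the 8 inner ORFs, YLR159W (0.59 ± 0.18) and YLR162W (0.997 ± 0.25) were called higher there.

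**Figure D5:**
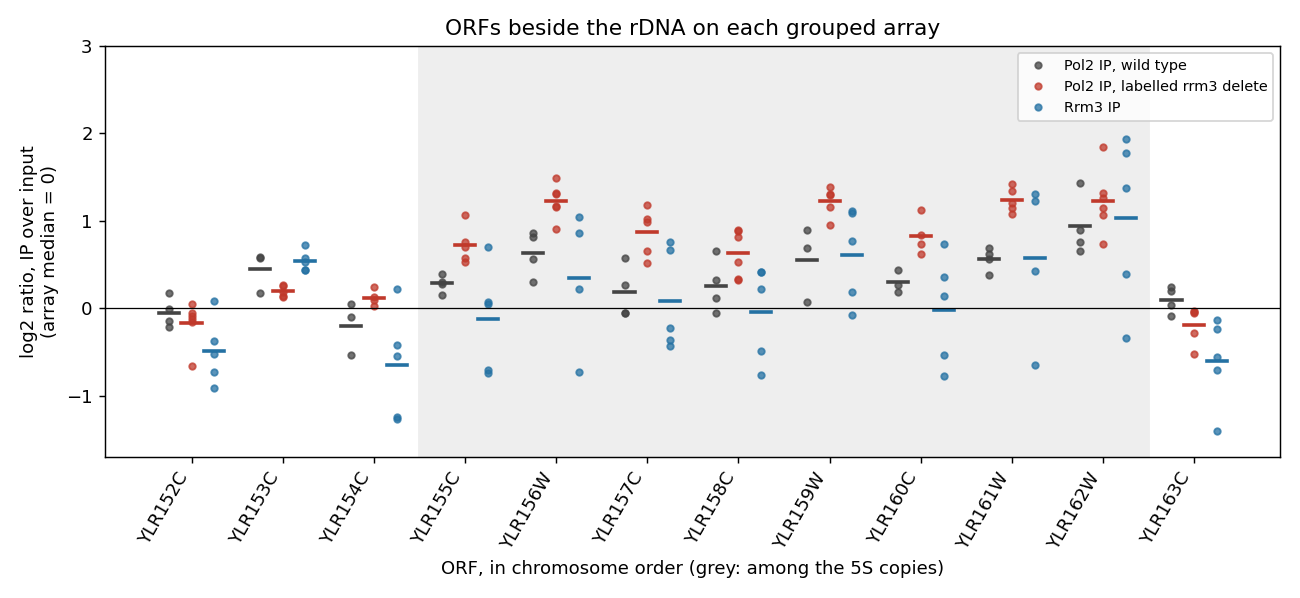
Log2 ratio of IP over input (vertical axis, array median 0) of the 12 ORFs beside the rDNA in chromosome order (horizontal axis), with 1 point per array, a line at each group mean and colours for the groups. The 8 ORFs on grey, among the 5S copies and with the near-identical ASP3 genes, were all called higher on arrays labelled rrm3 delete. Their fitted means ran from 0.63 to 1.24, and the 4 outside were not called there.

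The tRNA genes are, like the 5S gene, read by RNA polymerase III. Of 41 tested tRNA features, 38 were called higher for Pol2 on arrays labelled rrm3 delete, against 9.38% of all tested features. Their median was 0.85, close to the 0.75 of the rDNA. In wild type 1 was called higher, against 0 of the 17 rDNA features and 0.937% of all tested features. The medians there were -0.00 for tRNA features and 0.57 for the rDNA. For arrays labelled rrm3 delete minus wild type 8 tRNA features were called higher, against 0.557% of all tested features. Their median difference was 0.91, against 0.16 for the rDNA. The difference between the lists was not tested. The other RNA polymerase III genes on the arrays were SNR6, for U6 snRNA, and SNR52, for a small nucleolar RNA. SNR52 was called on arrays labelled rrm3 delete (0.75 ± 0.12) and SNR6 was at 0.57 ± 0.27 (adjusted p = 0.173). Ribosomal protein genes, which RNA polymerase II reads, were called higher in 65 of 127 cases in the Rrm3 IP, with a median of 0.53, against 11% of all features. On arrays labelled rrm3 delete 19 were called higher and 3 lower, against 9.38% and 6.91% of all features, and in wild type 6 were called higher, against 0.937%.

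Across the grouped arrays, the features most like RDN5-1 were the intergenic region IYLRCDELTA8 (Pearson r = 0.97 over 14 arrays), ASP3-3 (0.95 over 14), IYLR161W (0.95 over 13), IYLR159W (0.95 over 14) and IYLR155C-A (0.95 over 13). The last 4 belong to the features beside the rDNA. By gene order, 5S copies lie after YLR161W and after YLR159W, so IYLR161W and IYLR159W may share sequence with RDN5-1. Whether their spots hold 5S sequence was not examined. Those most like RDN25-1 were IYGR267C and IYJL048C (0.89 each over 13 arrays), SNT1 (0.89 over 13), IYLR062C (0.88 over 13) and IYGL200C (0.88 over 12), none of them beside the rDNA. These values describe likeness over arrays that share array effects and carry no test.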

How the data were processed

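Each array came as deposited scanner intensity values: a median signal and local background for both channels of every spot, the percent of saturated pixels, a flag for poor spots and a mark for failed PCR. The authors also deposited 1 log2 column per array, described in their series text as ratios of IP over input normalised on the median. Image software and genome build: not given in the sources used here. Array direction was taken from the sign of each array's correlation with the deposited log2 column. Background-subtracted medians were used, without flagged spots or signals at or below 0. Spots sharing a name were averaged and each array was shifted to a median of 0. A feature was tested if every group had at least 3 arrays with a value. The test was limma 3.58.1 in R 4.3.3 (group means plus a dye term, empirical Bayes, prior degrees of freedom 6.12), with Benjamini-Hochberg adjustment at 0.05, and was checked on simulated data. Within-array differences were tested by exact permutation. As 0 names began with NTS, the IRDN spacer features took the place planned for NTS features.

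The members and lists were chosen with earlier results of these data known. All members were named, and likeness is the 5 features with the highest Pearson r over at least 12 arrays. Alternatives changed the background correction, spot filters, dye term, normalisation, array 136 and the arrays included. Dye swaps are technical replicates per the series text, but which arrays share an extract is not said there, so the p-values reflect array-to-array spread and this may be technical. Array numbers pair no samples. Array 231 has labels at odds on the deletion and entered no comparison. The number of arrays limits the precision.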

Additional observations from a re-analysis of the deposited data

Results flagged for a closer look

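Array 088 of the Rrm3 IP lay apart from the other 4 Rrm3 arrays at RDN25-1C, with a log2 ratio of 2.88 against 0.39 to 0.91, and at RDN37-1, with 2.48 against 0.38 to 0.90. In both cases the gap to the nearest array, 0.79 and 0.75 of the whole range of the group, exceeded the 95% critical value of Dixon's test. In all, 40 sets of 1 feature and 1 group were examined, and chance flags about 1 in 20 of such sets. On array 088, 1 rDNA feature had a spot of 60000 or more.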

How the results depend on the processing

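The calls of RDN5-1, IRDN5-1, IRDN5-2 and IRDN5-3 on arrays labelled rrm3 delete held under every alternative that could test them. In wild type the count of called features went from 0 to 1 with loess, with dim spots, failed PCR products or spots of 60000 or more left out, to 7 without arrays 031 and 041, to 9 without arrays 031, 041 and 184, and over 0 to 4 when single arrays were left out. On arrays labelled rrm3 delete the 8 became 5 with the IP in Cy5 only, 2 (of 4 tested) without spots of over 10% saturated pixels, and 4 to 9 without single arrays. In the Rrm3 IP the 12 became 6 without background subtraction, 7 with the deposited table as deposited, 2 with the IP in Cy5 only, 4 (of 4 tested) without saturated spots, and 5 to 14 without single arrays. Without arrays 031, 041 and 184, the count was 2 for arrays labelled rrm3 delete minus wild type, 5 for Rrm3 minus wild type and 7 for Rrm3 minus arrays labelled rrm3 delete. The last was also 2 without spots of 60000 or more, 4 without arrays 031 and 041, and 0 to 2 without single arrays. The cause was not tested. Without arrays 031, 041 and 184, RDN37-1C turned to 0.64 in the Rrm3 IP (adjusted p = 0.0294) and RDN25-1A to 1.01 for Rrm3 minus arrays labelled rrm3 delete (adjusted p = 0.0325). That alternative, the one on saturated pixels, and within-array differences without spots of 60000 or more were chosen after seeing the data. No within-array difference passed the threshold under any alternative run. No paired analysis was possible because the groups share no replicate numbers. Signals at the scanner limit bound the ratios of bright rDNA spots.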

Other observations

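Array 231, whose labels contradict each other on the deletion, measured all 17 rDNA features. Its log2 ratios of IP over input ranged from -0.89 at RDN37-1C to 0.89 at RDN25-1B, with a median of 0.47, and 11 of the 17 were above the array median. RDN5-1 was at 0.59, RDN25-1 at 0.59, IRDN5-2 at 0.61 and RDN18-1 at 0.26. The median was 0.56 for the 5S and spacer features and 0.12 for the precursor-gene features. RRM3 had an input signal at percentile 22.0 of all spots on this array.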
